A study of Homo sapiens with 2 samples.

Results

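NRF2, encoded by NFE2L2, is the transcription factor of the response to oxidants and electrophiles, and 9 genes around it are described here: the factor, its inhibitor KEAP1, the target genes NQO1, HMOX1, TXNRD1, SRXN1 and OSGIN1, the thioredoxin-binding protein gene TXNIP, and AOX1, which encodes aldehyde oxidase. They were chosen by name and by their levels on the 2 arrays of the series, with the differences already known, so their values below are a description and not a test. They are 9 of 18417 genes measured, and each of the 9 is represented by 1 sequence of the array. HT1080 cells, a human fibrosarcoma line, were grown for 24 h in wells coated with bovine serum albumin (BSA, the control) or with rLCC111 at 1 µg per well. rLCC111 is a recombinant coiled-coil domain of laminin-111, built from truncated mouse laminin chains and produced in a human kidney cell line. Each coating has 1 RNA sample on 1 GeneChip Human Gene 1.0 ST array, so there is no replicate, no p-value is given, and a difference between coatings cannot be told apart from a difference between 2 RNA samples. In RNA from a whole culture, fewer cells that make a transcript and less transcript per cell cannot be told apart either.

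In unstressed cells KEAP1 holds NRF2 in the cytoplasm and presents it to the CUL3 ubiquitin ligase, so that the protein is destroyed soon after it is made. Oxidants and electrophiles modify cysteines of KEAP1, after which NRF2 accumulates, pairs with a small MAF protein in the nucleus and binds antioxidant response elements. The activity of the factor is therefore set largely at the level of protein, which an expression array does not measure, and the levels of its target transcripts are the nearest readout. BACH1 competes for the same elements and represses HMOX1 in particular. AOX1 oxidises aldehydes and nitrogen heterocycles with a molybdenum cofactor and releases superoxide and hydrogen peroxide. TXNIP binds reduced thioredoxin and lowers glucose uptake, and its gene is driven by the glucose sensor MondoA, encoded by MLXIP.

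The antioxidant response element has a core that is written here as TGACNNNGC or TGAGNNNGC, and both cores and the E box CACGTG were searched on both strands of the RefSeq promoter windows of GRCh38.p14, each with 250 bases before and 50 after a start site. Of the 9 genes, 8 had a window in this table, 12 windows in all, and HMOX1 had none. At least 1 core lay in 7 of the 12 windows, which belong to 6 genes, against 29.1% of all 35116 windows. TGACNNNGC was found in 3 of the 12 and in 13.3% of all windows, TGAGNNNGC in 6 and in 18.3%, and the E box in 1 and in 7.26%. The 250 bases before the start are shown for AOX1, which differed most, for TXNIP, which came next, for TXNRD1 at the start with matches to both cores, and for NQO1 and OSGIN1, 2 NRF2 targets with little difference. Capitals mark each match, which is a match of letters and not a measured binding site.
AOX1, chr2:200585764-200586013, plus strand: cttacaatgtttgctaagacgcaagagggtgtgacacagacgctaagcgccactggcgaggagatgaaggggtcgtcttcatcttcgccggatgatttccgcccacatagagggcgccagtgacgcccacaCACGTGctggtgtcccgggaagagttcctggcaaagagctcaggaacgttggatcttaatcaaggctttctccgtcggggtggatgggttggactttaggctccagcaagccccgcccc
TXNIP, chr1:145996580-145996829, minus strand: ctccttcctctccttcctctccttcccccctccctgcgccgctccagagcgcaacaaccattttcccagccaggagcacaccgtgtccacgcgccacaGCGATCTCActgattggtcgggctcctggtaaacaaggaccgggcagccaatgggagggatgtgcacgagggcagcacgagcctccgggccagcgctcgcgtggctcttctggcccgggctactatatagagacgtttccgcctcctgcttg
TXNRD1, chr12:104286782-104287031, plus strand: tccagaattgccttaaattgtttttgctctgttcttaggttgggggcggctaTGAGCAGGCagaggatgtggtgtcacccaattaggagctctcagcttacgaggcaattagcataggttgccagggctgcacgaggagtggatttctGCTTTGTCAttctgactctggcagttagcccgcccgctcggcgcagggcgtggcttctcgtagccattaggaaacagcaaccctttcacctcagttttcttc
NQO1, chr16:69726561-69726810, minus strand: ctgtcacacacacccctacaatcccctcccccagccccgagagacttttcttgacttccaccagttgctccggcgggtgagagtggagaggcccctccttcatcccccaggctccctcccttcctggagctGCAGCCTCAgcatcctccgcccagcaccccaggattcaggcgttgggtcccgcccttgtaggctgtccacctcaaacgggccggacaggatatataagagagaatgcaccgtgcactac
OSGIN1, chr16:83952990-83953239, plus strand: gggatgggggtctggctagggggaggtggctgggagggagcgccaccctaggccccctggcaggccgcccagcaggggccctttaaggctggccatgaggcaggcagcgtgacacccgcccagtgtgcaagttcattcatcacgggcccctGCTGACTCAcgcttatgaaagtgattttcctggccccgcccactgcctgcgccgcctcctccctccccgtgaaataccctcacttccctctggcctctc

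The AOX1 window holds the E box, with its first base at position -119 from the start, and neither core. The TXNIP window holds TGAGNNNGC at -152, read on the strand opposite to the one printed. In the TXNRD1 window TGAGNNNGC lies at -198 and TGACNNNGC, on the opposite strand, at -102. The NQO1 and OSGIN1 windows each hold TGAGNNNGC on the opposite strand, at -119 and at -99. In the windows shown, cores were thus present in genes whose levels were lower on rLCC111 and in genes whose levels hardly differed. Among genes not shown, NFE2L2 and KEAP1 each had cores in 1 of 2 windows, and SRXN1 had none in its 1 window. TXNIP also had 2 windows, and the one not shown had no match. Elements farther from a start site were not searched, and whether cores go with the differences was not tested.

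On both arrays all 9 genes lay above 6.61, the 95th percentile of the mean log2 levels of 394 olfactory, taste and vomeronasal receptor genes, which were taken as silent in this line. The log2 differences of these receptor genes, rLCC111 minus BSA, had an SD of 0.18. It comes from the same 2 arrays and from genes taken as silent, so it is not the error of a difference between coatings. Below it serves only as a scale of size. The array medians were 7.04 on BSA and 7.12 on rLCC111. Of the mesenchymal markers, 6 of 8, VIM, CD44, LGALS1, TWIST1, SNAI2 and FN1, were above 6.61 on both arrays, with THY1 and S100A4 below it. Of the epithelial markers 2 of 6 were above it, KRT19 and KRT14, at 7.30 to 7.54, of the blood markers 1 of 3, CD14, at 6.68 and 6.69, and of the endothelial markers 0 of 4. The summed linear level of the mesenchymal markers, on the log2 scale, was 15.17 on BSA and 15.25 on rLCC111, that of the epithelial markers 9.17 and 9.21, that of the blood markers 7.41 and 7.42 and that of the endothelial markers 8.21 and 8.24.

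As deposited, the 9 genes differed between the coatings by unlike amounts and not all in 1 direction. AOX1 was 2.46-fold lower on rLCC111, TXNIP and HMOX1 were lower by smaller amounts, SRXN1, NFE2L2 and TXNRD1 were slightly lower, and NQO1, KEAP1 and OSGIN1 were nearly level. In counts, 1 gene was at least 2-fold lower, against 0.0869% of all 18417 genes, and none was at least 2-fold higher, against 0.239%. A smaller limit, used from here on, was a fold of 0.80 or less for 20% lower and the reverse of it for 25% higher, which are equal in size on the log2 scale. By this limit 3 genes were at least 20% lower, against 3.68% of all genes, and none was at least 25% higher, against 4.56%. The choice of the genes used this contrast, so these shares stand beside the counts and nothing is read from them. HMOX1, at -0.40, was the gene just inside the limit of 20%, and SRXN1, at -0.28, the gene just outside it. The median log2 difference of the 9 was -0.24, beside 0.00 over all genes. Among genes in order of their difference, the gap between AOX1 and TXNIP was 0.78, and every other gap between neighbours in the order was 0.18 or less, the size of the SD of the silent receptor genes.

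**Figure D1:**
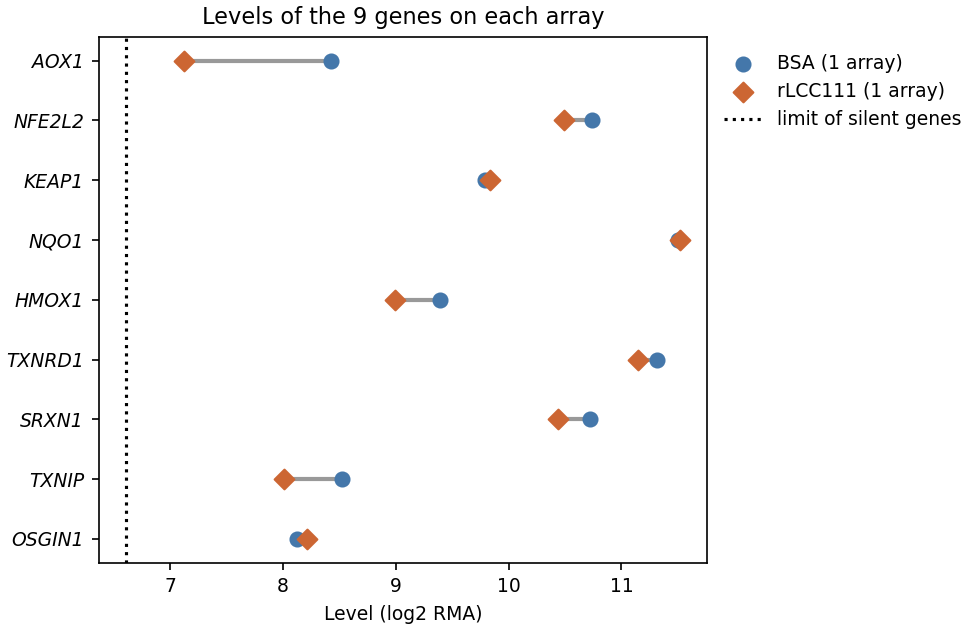
Log2 level (horizontal axis) of each of the 9 genes on the BSA array (blue circles) and on the rLCC111 array (orange diamonds), 1 array per coating, joined by a grey line; the dotted line marks the limit of 6.61. AOX1 has the longest line, from 8.42 to 7.12, and the 2 points of NQO1 nearly coincide.

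AOX1 had a log2 level of 8.42 in cells on BSA and of 7.12 in cells on rLCC111. The difference of -1.30 is a fold of 0.406, or 2.46-fold lower on rLCC111. It was the largest difference among the 9 genes, and it ranked as number 7 on the lower side among all 18417. In either direction 26 genes, or 0.141%, differed by at least as much, AOX1 included. On rLCC111 its level was 0.51 above the limit of silent genes, compared with 1.81 on BSA.

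Aldehyde oxidase is 1 of a few enzymes that need the molybdenum cofactor. Of 9 other genes of molybdenum enzymes and of cofactor synthesis, 8 had a difference below 0 as deposited, against 46.6% of all genes. With each array centred on its median all 9 were below 0, against 73.6% of all genes. After quantile normalization the count was also 9, against 65.8%. As deposited the median of the 9 was -0.12, beside 0.00 over all genes. Of the 9 genes 1 was at least 20% lower, against 3.68% of all genes, and none was 25% higher, against 4.56%. The lower gene was MOCS2, which makes both subunits of molybdopterin synthase, with levels of 10.54 (BSA) and 10.11 (rLCC111). MOCOS, the sulphurase that activates the cofactor of AOX1 and of xanthine dehydrogenase, had a difference of -0.29, and MTARC1, an amidoxime-reducing enzyme of mitochondria, of -0.26, from 6.73 on BSA to 6.47 on rLCC111, which is under 6.61. The gene of xanthine dehydrogenase itself, XDH, which is the closest relative of AOX1 among these enzymes, was near the limit of silent genes, at 6.64 and 6.69. GPHN, MOCS1 and SUOX were within 0.10 of 0.

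NFE2L2, the gene of NRF2, had levels of 10.74 (BSA) and 10.49 (rLCC111), a difference of -0.24 and a fold of 0.846. KEAP1 was at 9.79 and 9.84, a difference of 0.05. The sensor transcript was thus nearly level while the factor transcript was slightly lower, by little more than the SD of the silent receptor genes. Of 18 other genes that act on NRF2 or share its elements, 17 lay within the smaller limit, and the median was 0.00. The exception was BACH1, the repressor of HMOX1, which had levels of 9.12 (BSA) and 9.49 (rLCC111), a fold of 1.30. CUL3, the scaffold of the ligase, had a difference of -0.02. The small MAF partners MAFF and MAFG had differences of -0.02 and 0.02. SQSTM1, which encodes p62, an autophagy receptor that removes KEAP1 and is itself an NRF2 target, had a difference of -0.04. On the lower side the related factor NFE2L3 was farthest, at -0.24, followed by AMER1 at -0.10, and on the higher side after BACH1 the ligase genes FBXW11 and SYVN1 each had 0.11.

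HMOX1, which encodes the inducible heme oxygenase, had levels of 9.39 (BSA) and 8.99 (rLCC111), a fold of 0.758. It had the largest difference of the 5 NRF2 target genes among the 9, at -0.40, and it lay opposite in sign to BACH1. Whether the values of HMOX1 and BACH1 are linked was not tested. The constitutive enzyme gene HMOX2 was lower by less, with a difference of -0.21. Of 10 genes of heme and iron handling, HMOX2 among them, 1 was at least 25% higher and none lower, and the median was 0.01. That gene was ABCB6, a porphyrin transporter, with a difference of 0.39. BLVRB and BLVRA, reductases of the biliverdin that heme oxygenase makes, had 0.24 and 0.11, ALAS1, the first enzyme of heme synthesis, -0.25, and the ferritin light chain gene FTL 0.00.

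SRXN1 encodes sulfiredoxin, which restores overoxidised peroxiredoxins. Its levels were 10.72 (BSA) and 10.44 (rLCC111), a fold of 0.822. TXNRD1, the cytosolic thioredoxin reductase, was at 11.32 and 11.15, a fold of 0.891. Both were lower on rLCC111, SRXN1 by more and TXNRD1 by less than the SD of the silent receptor genes, and neither was 20% lower. Other genes of these systems also had small differences. TXN, thioredoxin, had -0.20, PRDX3 -0.16, PRDX6 -0.14 and PRDX1, an NRF2 target and a substrate of sulfiredoxin, 0.02. Of 20 genes of the thioredoxin, peroxiredoxin and glutaredoxin systems, 13 had a difference below 0 as deposited, against 46.6% of all genes. The count was 16 with each array centred on its median, against 73.6% of all genes, and 14 after quantile normalization, against 65.8%. As deposited 1 of the 20 was at least 20% lower, against 3.68% of all genes, and 1 at least 25% higher, against 4.56%. The median was -0.07. Both exceptions were sestrin genes, and they lay in opposite directions. SESN2, a stress-induced inhibitor of mTORC1, had levels of 9.90 (BSA) and 9.12 (rLCC111), a fold of 0.582. SESN3 had levels of 6.27 (BSA) and 6.85 (rLCC111), a difference of 0.58, of which the first lies under 6.61.

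NQO1, the quinone reductase that serves as a standard readout of NRF2, had levels of 11.50 (BSA) and 11.52 (rLCC111), a fold of 1.01. OSGIN1, an oxidative stress-induced growth inhibitor, was at 8.13 and 8.21, a fold of 1.06. These 2 targets differed by less than the SD of the silent receptor genes. Other enzymes of quinone, carbonyl and conjugation chemistry and their exporters gave a mixed picture. Of 17 genes, 2 were at least 25% higher, against 4.56% of all genes, and 1 was at least 20% lower, against 3.68%. The median was 0.09. ABCC3, an exporter of organic anions and conjugates, had levels of 8.05 (BSA) and 9.07 (rLCC111), a fold of 2.03, and was the one gene of the 117 on the 10 lists that passed 2-fold. Centred arrays and quantile normalization brought it under 2-fold, with 0.94 as its lowest log2 difference. EPHX1, the microsomal epoxide hydrolase, had a fold of 1.43 and ABCC2, a related exporter, 0.697. CBR1 and CBR3, the carbonyl reductases, had differences of -0.01 and 0.04. AKR1C1, AKR1C2, AKR1C3 and AKR1B10, often among the most strongly induced NRF2 targets in human cells, were not above the limit of silent genes on either array, and AKR1C1, AKR1C2 and AKR1C3 are similar enough in sequence that their signals may mix.

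**Figure D2:**
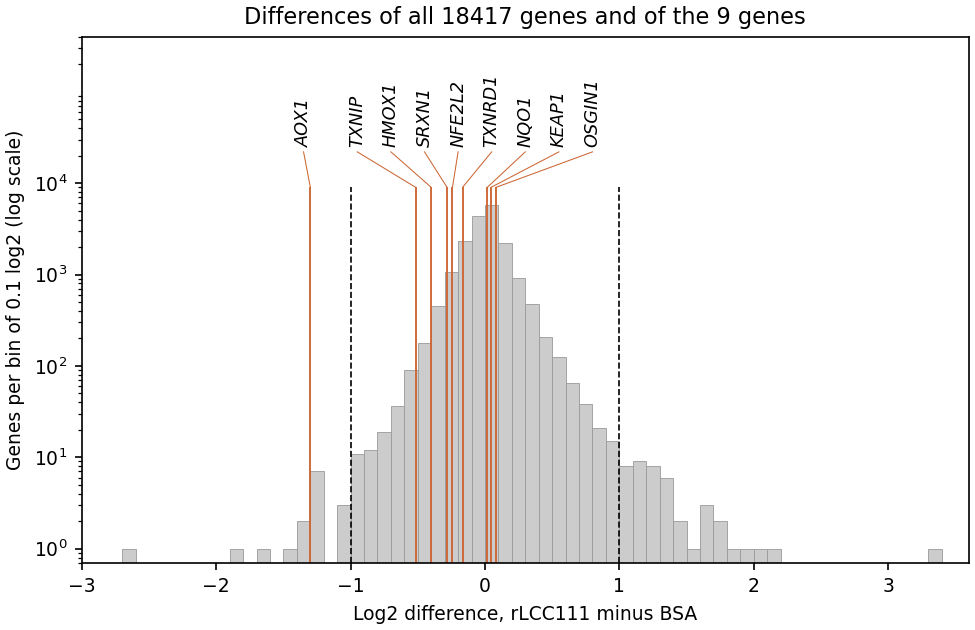
Number of genes (vertical axis, log scale) in bins of 0.1 of the log2 difference, rLCC111 minus BSA (horizontal axis), for all 18417 genes, with an orange line at the difference of each of the 9 genes; dashed lines mark 2-fold. AOX1, at -1.30, lies beyond the lower dashed line, and the other 8 lie between -0.52 and 0.08.

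TXNIP had levels of 8.52 (BSA) and 8.00 (rLCC111), a difference of -0.52 and a fold of 0.699. It had the second largest difference of the 9 genes, and 451 of all genes, or 2.45%, differed by at least as much in either direction. MLXIP, the gene of its activator MondoA, had levels of 10.77 (BSA) and 11.11 (rLCC111), a fold of 1.26, opposite in sign to TXNIP, and whether the values are linked was not tested. ARRDC4, the other arrestin-like gene that MondoA is known to drive, had a difference of -0.05, at 6.66 on BSA and 6.61 on rLCC111, so that it lay at the limit of silent genes. Of 8 relatives of TXNIP and genes of the MondoA complex, 2 were at least 25% higher, MLXIP and the arrestin gene ARRB1 at 0.39, and none was lower. ARRDC3 and MLX each had -0.07, and the median of the 8 was 0.00.

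In the glutathione branch of the NRF2 response 6 of 8 genes had a difference below 0 as deposited, against 46.6% of all genes. With each array centred on its median all 8 were below 0, against 73.6% of all genes. As deposited 1 was at least 20% lower. The median was then -0.10, and -0.15 for the 6 genes above the limit of silent genes. SLC7A11, the cystine transporter, had levels of 11.65 (BSA) and 11.28 (rLCC111), a fold of 0.774. GCLM, the modifier subunit of the enzyme that starts glutathione synthesis, was at 9.20 and 8.88, a fold of 0.801, just short of 20% lower. The catalytic subunit gene GCLC had a difference of -0.11 and the glutathione reductase gene GSR -0.20. SLC7A11 and SESN2 are also targets of ATF4, the factor of the amino acid response, so they do not read NRF2 alone.

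Transcripts of enzymes listed around the supply of NADPH to these reactions did not move in 1 direction. Among these enzymes, those of TALDO1 and TKT do not make NADPH themselves. The activity of the enzymes was not measured, so the supply of NADPH is not read from these values. TALDO1, transaldolase, had levels of 11.14 (BSA) and 10.76 (rLCC111), a fold of 0.773. ME1, the cytosolic malic enzyme, was at 10.41 and 10.78, a fold of 1.29. PGD and TKT had differences of -0.13 and -0.04 and IDH1 0.23, so the median of the 5 genes was -0.04.

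Genes that remove superoxide and peroxide were nearly level as a list. Of 10 genes 1 was at least 25% higher, against 4.56% of all genes, and 1 at least 20% lower, against 3.68%. The higher was CAT, which encodes catalase, with levels of 9.72 (BSA) and 10.06 (rLCC111). The lower was the endoplasmic reticulum peroxidase gene GPX8, with 10.17 and 9.76. The median was -0.03. SOD1 and SOD2, the cytosolic and mitochondrial superoxide dismutases, had differences of -0.08 and -0.14, and GPX1 and GPX4 -0.01 and 0.02.

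**Figure D3:**
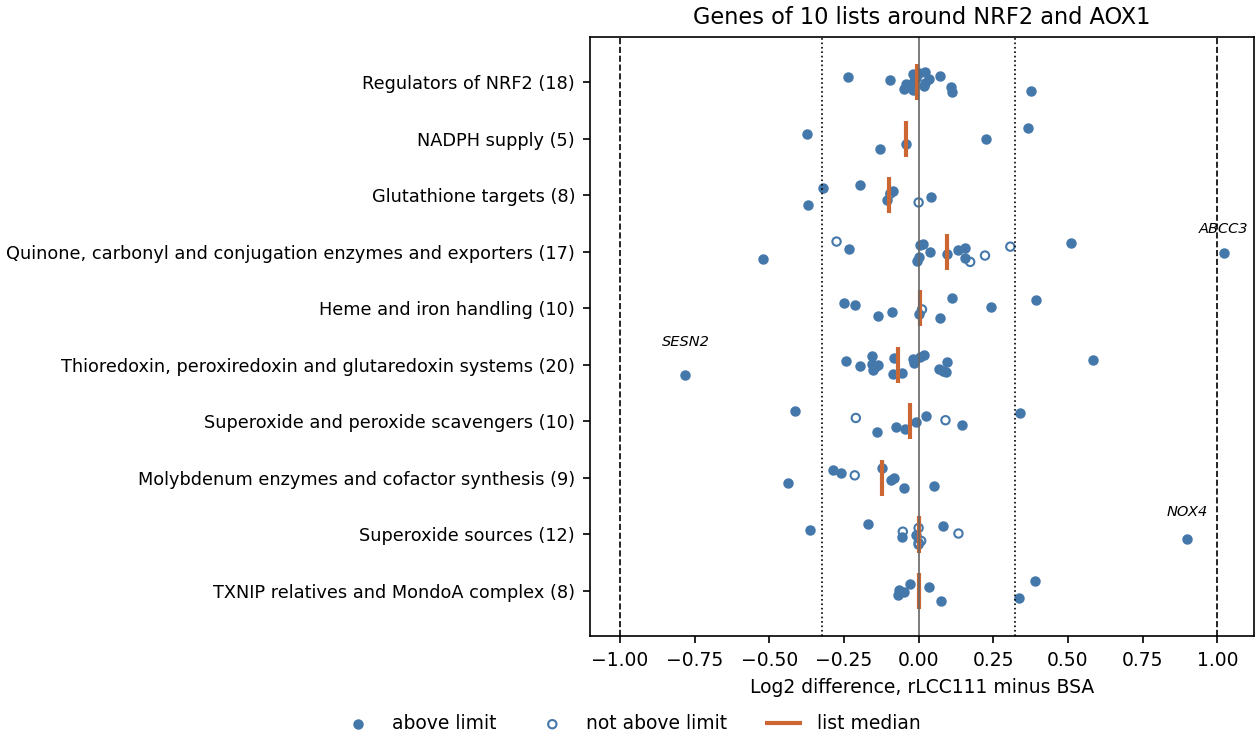
Log2 difference, rLCC111 minus BSA (horizontal axis), of the 117 measured genes of 10 lists (rows, number of genes in parentheses), 1 point per gene, filled where the higher of the 2 levels exceeded 6.61 and open otherwise; orange bars mark list medians, dotted lines 20% lower and 25% higher and dashed lines 2-fold. ABCC3, NOX4 and SESN2 lie farthest from 0, and the list medians lie between -0.12 and 0.09.

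Over the 10 lists together, 117 of 131 genes were measured. At least 25% higher were 10, or 8.55%, against 4.56% of all genes, and at least 20% lower were 7, or 5.98%, against 3.68%. The split between directions depends on the scaling of the arrays. With each array centred on its median it was 4 higher and 12 lower among the list genes and 512 higher and 1279 lower among all genes, in place of 840 and 678 as deposited. In that setting BACH1, ME1, CAT, MLXIP, ARRB1 and ABCB6 were no longer 25% higher, while GCLM, AKR1C2, ALAS1, MOCOS and MTARC1 became at least 20% lower. The median over all genes fell by 0.079 there. Quantile normalization gave 9 higher and 11 lower among the list genes and 643 higher and 952 lower among all genes.

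**Figure D4:**
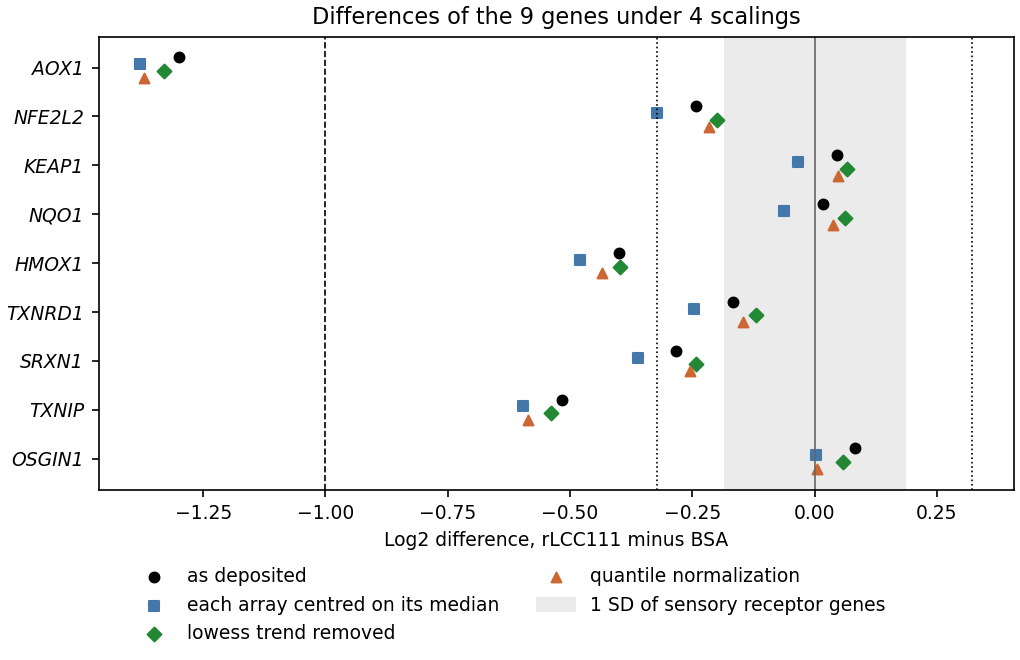
Log2 difference, rLCC111 minus BSA (horizontal axis), of each of the 9 genes as deposited (circles), after centring of each array (squares), after removal of a lowess trend (diamonds) and after quantile normalization (triangles); the grey band spans 1 SD of the silent receptor genes to each side of 0, dotted lines mark 20% lower and 25% higher and the dashed line 2-fold lower. AOX1 stays beyond 2-fold at -1.30 to -1.38, and KEAP1 and NQO1 are the genes whose points lie on both sides of 0.

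The order of AOX1, TXNIP and HMOX1 as the lowest 3 held under all 4 scalings, with AOX1 between -1.38 and -1.30, TXNIP between -0.60 and -0.52 and HMOX1 between -0.48 and -0.40. SRXN1 ranged from -0.36 to -0.24, NFE2L2 from -0.32 to -0.20 and TXNRD1 from -0.25 to -0.12. KEAP1, from -0.03 to 0.07, and NQO1, from -0.06 to 0.06, changed sign with the scaling, and OSGIN1 ranged from 0.00 to 0.08.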

How the data were processed

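The GeneChip scans of 1 BSA and 1 rLCC111 array were turned into expression levels by the authors with the RMA algorithm (Affymetrix Expression Console), which removes background, scales the arrays to each other and combines the probes of a sequence. The deposited values are these levels in log2. RMA settings, software version and genome build are not given in the sources used here. Since RMA scales arrays to each other, a shift of all transcripts would not be seen. The methods also name limma, which cannot be fitted to 1 array per coating.

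Of 33297 sequences, 19460 carry 1 symbol, 1754 several and 12083 none. Symbols were updated through gene identifiers to RefSeq (GRCh38.p14), sequences with several were not used, and the one with the highest mean level stood for each of 18417 genes. Members, lists and limits were chosen with earlier results of these data known. Genes named are the 9 members, each list's genes past 2-fold, the 3 largest differences each way above the limit of silent genes (examples are given), and GCLC, GCLM, SLC7A11, PRDX1, TXN, XDH, MLXIP, ARRDC4, BACH1 and CUL3, beside a gene not reported here; other list genes were added after their values were seen.

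Alternatives were centring on the array median, removal of a lowess trend (span 0.2, 3 iterations), quantile normalization, the mean over sequences, genes with the brighter array above the limit of silent genes (12730 of 18417) and a limit of 1.5-fold. The counting of folds was tried on simulated data with known changes and with less noise than the silent receptor genes show. That run checks the counting and does not measure how often noise passes a limit in these data. Python 3.11.15, numpy 2.4.6, pandas 2.3.3 and statsmodels 0.14.6 were used. The number of arrays limits the precision.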

Additional observations from a re-analysis of the deposited data

How the results depend on the processing

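The number of the 9 genes at least 20% lower was 3 as deposited, after the lowess fit and after quantile normalization, and 4 after centring, where SRXN1 joined at -0.36. At a limit of 1.5-fold it was 1. AOX1 alone passed 2-fold in all of these scalings, and none of the 9 was 25% higher in any. The mean over sequences left the 9 genes as they were, since each has 1 sequence. Centring raised the genes at least 2-fold lower from 16 to 25. The medians of the 10 lists moved by between -0.079 and 0.039 over all alternatives and changed sign for 2 lists after centring, 3 after the lowess fit and 3 after quantile normalization. The median farthest from 0 among these as deposited was that of the superoxide and peroxide scavengers, at -0.03, and it was 0.00 after the lowess fit. No paired analysis was possible because each coating has 1 array.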

Other observations

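Among 12 measured genes of superoxide sources, NOX4, a hydrogen peroxide-producing oxidase that TGF-beta is known to induce, had levels of 8.25 (BSA) and 9.15 (rLCC111), a fold of 1.87. RAC2, a small GTPase of the phagocyte oxidase, was at 12.17 and 11.80, a fold of 0.778. The genes of the other catalytic subunits, NOX1, NOX3, CYBB, DUOX1 and DUOX2, were not above the limit of silent genes. The oxidase subunit gene CYBA had a difference of -0.17, and the median of the 12 was 0.00.

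The nearest measured genes on either side of the 9 in the RefSeq table gave 18 neighbours, of which 17 were less than 20% lower and less than 25% higher. Over all genes only 3.68% were at least 20% lower and 4.56% at least 25% higher, so nothing is read from this count. Beside AOX1, SGO2 had a log2 difference of -0.17 and BZW1 of -0.23. The exception was NFAT5, beside NQO1, at 0.39.

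Exactly equal values on both arrays were deposited for 1325 of 18417 genes, or 7.19%, CREBBP among them at 10.92. None of the 9 genes was among these, and 6 of the 117 list genes were. The medians of 0.00 over all genes, and the 46.6% of all genes below 0 as deposited, should be read beside this count.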
